A study of Saccharomyces cerevisiae with 12 samples.

Results

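The yeast genome still holds open reading frames (ORFs) that carry only a systematic name, made of a chromosome letter, an arm, a number and the strand, and no gene name of their own. Those of them whose transcript level changed under sulfur dioxide (SO2) are described here. A probe set was taken when the annotated symbol was only a systematic ORF name, when its mean log2 intensity reached 8 (an intensity of 256) in at least 1 of the 4 groups, and when its group mean log2 differed by 1 or more (2-fold) between SO2-treated and untreated cells of BY4741 or of *com2*Δ. Of 5716 probe sets, 508 carried only a systematic name (499 ORFs), and 103 of these, for 101 ORFs, met both limits. The members were thus selected on their measured response to SO2, and the differences between treated and untreated cells are given as a description with standard errors (SE) and without a p-value. All 103 matched a locus of the RefSeq annotation of yeast, where 0 of them had a standard gene name.

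Transcripts were quantified with 12 Affymetrix arrays (Yeast Genome 2.0), and each of 4 groups had 3 biological replicates. The groups were *com2*Δ cells with 0.5 mM SO2, *com2*Δ cells without SO2, BY4741 cells with 0.5 mM SO2 and BY4741 cells without SO2. All were cultures in MMB medium at pH 3.5, collected after 60 min. BY4741 is a haploid laboratory strain (MATa, *his3*Δ1 *leu2*Δ0 *met15*Δ0 *ura3*Δ0), the mutant lacks *COM2* in that background, and all 4 groups therefore share the 4 auxotrophic deletions, 1 of which, *met15*Δ0, removes the enzyme that joins sulfide to *O*-acetylhomoserine. Cells with SO2 are called treated and cells without it untreated.

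SO2 enters yeast at low pH, and bisulfite reacts with aldehydes, thiols and vitamins. Cells counter it by export through Ssu1, by reduction through sulfate assimilation, and by the general transcriptional responses to stress, which raise and lower large sets of genes at once. *COM2* codes for a zinc finger protein related to Msn2 and Msn4, the activators of the yeast stress response. ORFs without a gene name are a mixed class. It holds homologs of known enzymes that have not been studied, pieces of genes that a stop codon interrupts in the laboratory strain, leader peptides, copies of subtelomeric elements, and short ORFs that may not be translated at all.

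The *COM2* probe set gave 19.5 ± 0.659 in treated and 10.5 ± 1.32 in untreated *com2*Δ cells, against 2538 ± 196 in treated and 3366 ± 443 in untreated BY4741 cells (mean intensity ± SD, n = 3 each). Array medians lay between 1673 and 1868. The deleted gene *LEU2* reached at most 152.5, *URA3* 39.4 and *MET17* (*MET15*) 17.8, which shows the signal that a probe set can give without its transcript, and 20 members had a mean under 152.5 in at least 1 group. A difference against such a group is also given as a bound, for which array values below 152.5 were set to 152.5, and no fold is given where both groups lay under it. With these bounds 4 members, YJL218W, YFR012W-A and both probe sets of YGR174W-A, were under 2-fold in both strains. All 4 markers of MATa cells (*MFA1*, *MFA2*, *STE2* and *BAR1*) were high on every array, between 3079 for *BAR1* and 25385 for *MFA2*. Of the markers of MATα cells, *MF(ALPHA)1* stayed at 19.6 to 63.9 and *MF(ALPHA)2* at 65.7 to 228, whereas *STE3* averaged 892 in treated and 759 in untreated *com2*Δ cells, against 194 in treated and 718 in untreated BY4741 cells. The part of these markers in the members' values was not tested. Member intensities ran from 15.2 to 21251, and none was at the floor of 1. The median SD of a member within a group was 0.22 on the log2 scale, against 0.15 over all probe sets. In 2 arrays the members stood apart most from their replicates. In *com2*Δ with SO2 replicate 2, 20 members lay more than 0.5 outside both other replicates, and in BY4741 without SO2 replicate 3, 22 did.

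In *com2*Δ cells, 20 members were higher with SO2 than without and 23 were lower, while 2.59% of all probe sets met the limits upward in that strain and 2.47% downward. In BY4741 cells, 42 members were higher and 44 lower, against 9.95% upward and 7.72% downward among all probe sets. As the rule used these contrasts, nothing is read from the counts. The members that were higher in *com2*Δ had a median difference of 1.27 (1.03 to 2.82) and the lower ones of -1.48 (-2.82 to -1.03). In BY4741 the medians were 1.70 (1.05 to 3.47) and -1.52 (-3.75 to -1.01). In *com2*Δ the 3 treated and 3 untreated arrays overlapped for none of the 43 members past the limit, and they did not overlap for 47% of all probe sets and for 99.7% of the 289 past the same limits. In BY4741 they did not overlap for 41 of the 42 higher and all 44 lower members, against 62.9% of all probe sets and 98.7% of the 1010 past the limits. The separation follows from the choice of the members on these contrasts, and nothing is read from it. The exception was YGR079W, with 2485, 866 and 1342 in treated and 612, 429.7 and 902 in untreated BY4741 cells.

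Most of the members were past the limit in 1 strain. In both strains 7 were higher and 17 lower, 11 were higher and 6 lower in *com2*Δ only, and 35 were higher and 25 lower in BY4741 only. A further 2 members, YER053C-A and YDR248C, were higher in *com2*Δ and lower in BY4741, and 0 showed the reverse. Of the members that were higher in *com2*Δ, 35% were also higher in BY4741, which is 16.7% of those higher in BY4741. Of the members that were lower in *com2*Δ, 73.9% were also lower in BY4741, which is 38.6% of those lower there. The 42 members higher in BY4741 had a median of 0.45 in *com2*Δ (-0.87 to 2.19), 22 of them within 0.5 of 0, and the 44 lower members had a median of -0.80 (-2.82 to 1.99), 14 of them within 0.5 of 0. The median difference between the responses, *com2*Δ minus BY4741, was -1.25 for the members higher in BY4741 and 0.91 for the lower ones. A selection on a large value in either strain favours a smaller value in the other, so these figures stand as a description.

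**Figure D1:**
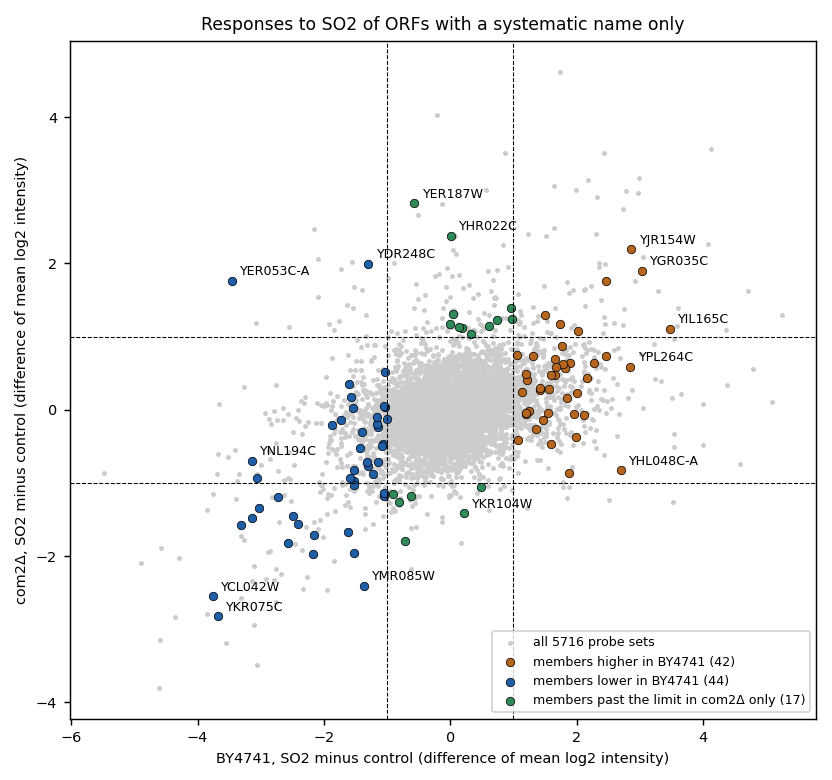
Difference between SO2-treated and untreated cells in *com2*Δ (vertical axis) and in BY4741 (horizontal axis), each as a difference of mean log2 intensity, for all 5716 probe sets (grey) and the 103 members (coloured). Dashed lines mark the limit of 1, and the members higher in BY4741 lie mostly between the dashed lines of *com2*Δ, while YER053C-A and YDR248C lie in the upper left corner.

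**Figure D2:**
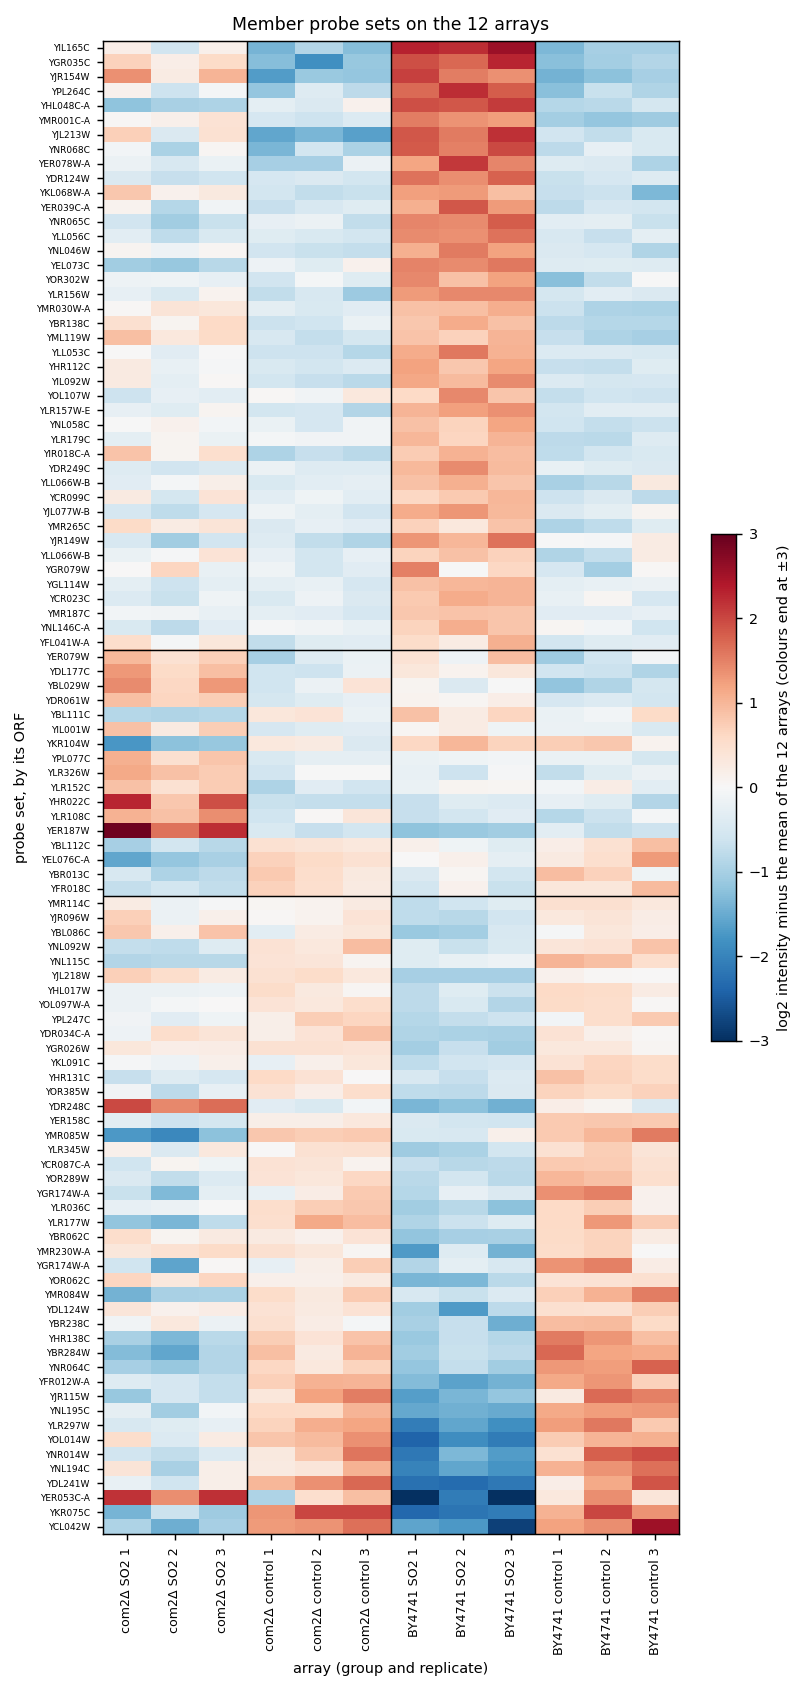
Log2 intensity of each member probe set on the 12 arrays, minus its mean over the 12, with 1 row per probe set and 1 column per array, and colours that end at a difference of 3. The top block holds the 42 members higher with SO2 in BY4741, the middle block the 17 past the limit in *com2*Δ only and the bottom block the 44 lower in BY4741, ordered by the difference in BY4741.

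YIL165C had the largest positive difference in BY4741. It is a piece of a nitrilase gene that is a single ORF with *NIT1* in other yeast strains. Its intensities were 4073, 2408 and 3988 in treated and 1362, 1941 and 1472 in untreated *com2*Δ cells, against 17505, 16459.6 and 21251 in treated and 1394, 1790.5 and 1786 in untreated BY4741 cells. All 3 treated arrays were above all 3 untreated ones in each strain, and the treated BY4741 arrays stood far above the treated *com2*Δ arrays. The difference was 1.11 (SE 0.21) in *com2*Δ and 3.47 (SE 0.21) in BY4741. YGR035C, a target of the drug resistance activators Yrm1 and Yrr1, had 591, 421 and 543 in treated and 149.9, 103 and 168 in untreated *com2*Δ cells, against 1400.0, 1199 and 1783 in treated and 154, 179.9 and 199 in untreated BY4741 cells. It was dim without SO2 in both strains and higher with SO2 in both, by 1.90 (SE 0.21) in *com2*Δ, at least 3.26-fold at the bound, and by 3.03 (SE 0.21) in BY4741. YJR154W had 529, 244 and 412 in treated and 64.3, 94 and 91.6 in untreated *com2*Δ cells, against 845, 589 and 529 in treated and 76.6, 86.6 and 102 in untreated BY4741 cells. Here the treated arrays of the strains came close to each other, and the differences were 2.19 (SE 0.27) in *com2*Δ and 2.87 (SE 0.27) in BY4741. The untreated means lay under 152.5, so these were at least 2.47-fold in *com2*Δ and at least 4.20-fold in BY4741.

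YPL264C was high only on the treated BY4741 arrays. Its intensities were 1476, 877 and 1296 in treated and 608, 1032 and 785 in untreated *com2*Δ cells, against 4424, 6292 and 4763 in treated and 568, 851 and 731 in untreated BY4741 cells. Treated and untreated *com2*Δ arrays overlapped, with a difference of 0.59 (SE 0.24), whereas that in BY4741 was 2.85 (SE 0.24). YNR068C had the same outline, with 1627, 904 and 1813 in treated and 668, 1178 and 905 in untreated *com2*Δ cells, against 6232, 4945 and 6886 in treated and 1011, 1459 and 1258 in untreated BY4741 cells. Its *com2*Δ groups overlapped as well, at 0.64 (SE 0.27), and the BY4741 groups differed by 2.28 (SE 0.27). YJL213W codes for a protein of the amidohydrolase family, enzymes that hydrolyse amide bonds in ring and chain substrates. Its intensities were 3383, 1519 and 2816 in treated and 698, 799 and 662 in untreated *com2*Δ cells, against 7532, 6064 and 9369.7 in treated and 1387, 1228 and 1509 in untreated BY4741 cells. It was higher with SO2 in both strains, by 1.76 (SE 0.25) in *com2*Δ and 2.46 (SE 0.25) in BY4741, and the untreated *com2*Δ arrays lay below the untreated BY4741 arrays.

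A pair of short ORFs completed the 8 highest in BY4741. YHL048C-A had 444, 524 and 539 in treated and 833, 754 and 1112 in untreated *com2*Δ cells, against 3918, 3731 and 4358 in treated and 566, 583 and 704 in untreated BY4741 cells. SO2 went with a lower value on every array in *com2*Δ, -0.82 (SE 0.15), and with a higher value on every array in BY4741, 2.70 (SE 0.15). YMR001C-A had 471, 512 and 623 in treated and 322, 298 and 344 in untreated *com2*Δ cells, against 1331, 1171 and 1089 in treated and 225, 206 and 219.6 in untreated BY4741 cells. It was higher with SO2 in both strains, by 0.73 (SE 0.12) in *com2*Δ and by 2.46 (SE 0.12) in BY4741. Both are next to larger genes, *COS8* and *CDC5*.

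**Figure D3:**
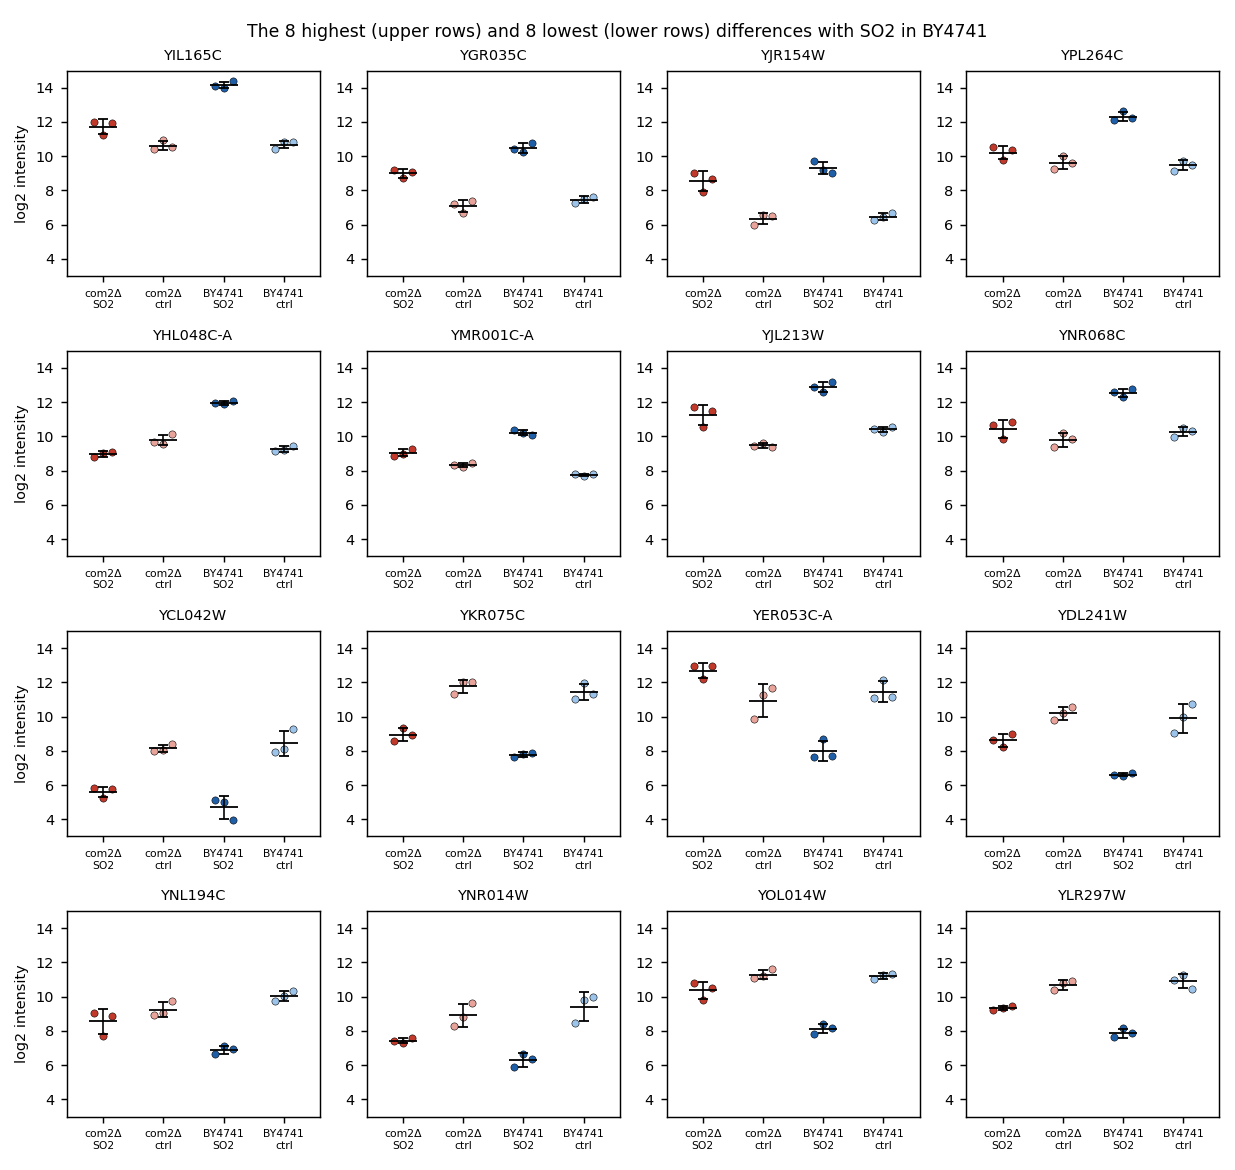
Log2 intensity of the 8 members with the highest (upper rows) and the 8 with the lowest (lower rows) difference in BY4741, on each array of the 4 groups. Points are arrays, long bars the group means and short bars 1 SD (n = 3). YHL048C-A and YPL264C are high only in treated BY4741 cells, and YER053C-A is lowest there and highest in treated *com2*Δ cells.

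Further members higher in BY4741 included genes with a known relative or role. YOR302W codes for the leader peptide of *CPA1*, the small subunit of carbamoyl phosphate synthetase, and stalls ribosomes on the *CPA1* transcript when arginine is plentiful. Its probe set gave 4566, 4615 and 4308 in treated and 3404, 4849 and 3936 in untreated *com2*Δ cells, against 13873, 9302 and 11675 in treated and 2133, 3036 and 5034 in untreated BY4741 cells. The *com2*Δ groups overlapped, at 0.16 (SE 0.26), and those of BY4741 did not, at 1.84 (SE 0.26), although untreated replicate 3 was higher than the other 2 untreated arrays. YLL053C is a piece of the aquaporin gene that is joined to *AQY2* in other strains, and it had 1419, 1111 and 1392 in treated and 911, 922 and 779 in untreated *com2*Δ cells, against 3057, 4202 and 2914 in treated and 1066, 1053 and 1022 in untreated BY4741 cells. The differences were 0.58 (SE 0.15) in *com2*Δ and 1.68 (SE 0.15) in BY4741, where all treated arrays exceeded all untreated ones.

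YNR065C, of the sortilin family of Vps10, had 1516, 1099 and 1417 in treated and 1906, 1992 and 1354 in untreated *com2*Δ cells, against 6203, 5978 and 7902 in treated and 1809, 1843 and 1407 in untreated BY4741 cells. Its *com2*Δ groups overlapped, at -0.37 (SE 0.19), and it was higher with SO2 in BY4741, at 1.99 (SE 0.19). YDR124W, a gene induced by mating pheromone, had 205, 172 and 182 in treated and 194, 204 and 189.9 in untreated *com2*Δ cells, against 848, 728 and 941 in treated and 173, 194 and 212 in untreated BY4741 cells. In *com2*Δ all 6 arrays lay between 172 and 205 with a difference of -0.07 (SE 0.12), against 2.12 (SE 0.12) in BY4741. YLR179C, a relative of the carboxypeptidase Y inhibitor Tfs1, was already bright without SO2. It had 5636, 7254 and 5989 in treated and 6591, 6410.3 and 6406 in untreated *com2*Δ cells, against 13644, 10798 and 13997 in treated and 4003, 3901 and 5261 in untreated BY4741 cells. It did not separate treated from untreated *com2*Δ cells, at -0.05 (SE 0.14), and was higher with SO2 in BY4741, at 1.55 (SE 0.14).

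Other homologs in this class showed smaller differences. YJR149W, similar to nitronate monooxygenases, differed by -0.02 (SE 0.20) in *com2*Δ and 1.24 (SE 0.20) in BY4741. YGL114W, of the oligopeptide transporter family, differed by -0.06 (SE 0.11) in *com2*Δ and 1.20 (SE 0.11) in BY4741. YEL073C had 638, 602 and 743 in treated and 1177, 1029 and 1437 in untreated *com2*Δ cells, against 3671, 3533 and 3958 in treated and 1003, 1021 and 1012 in untreated BY4741 cells. It was lower with SO2 on every *com2*Δ array, at -0.87 (SE 0.12), and higher on every BY4741 array, at 1.88 (SE 0.12). YML119W and YIR018C-A were among the 7 that were higher in both strains, at 1.17 (SE 0.15) and 1.30 (SE 0.17) in *com2*Δ and at 1.73 (SE 0.15) and 1.49 (SE 0.17) in BY4741. The other 5 of the 7 were YIL165C, YGR035C, YJR154W, YJL213W and YKL068W-A, the last at 1.07 (SE 0.21) in *com2*Δ and 2.03 (SE 0.21) in BY4741.

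YCL042W had the lowest difference in BY4741. Its intensities were 56, 38.6 and 53.4 in treated and 257, 269.6 and 335 in untreated *com2*Δ cells, against 35.5, 32.1 and 15.2 in treated and 245, 280.1 and 619 in untreated BY4741 cells. All treated values in both strains were below the highest *LEU2* signal of 152.5, so they give only a bound on the remaining transcript. The differences, -2.55 (SE 0.37) in *com2*Δ and -3.75 (SE 0.37) in BY4741, depend on these dim values, and at the bound it was at least 1.87-fold lower with SO2 in *com2*Δ and at least 2.29-fold lower in BY4741. YKR075C, related to the glucose repression regulator Reg1, had 380.5, 649 and 478 in treated and 2528, 4071 and 4074 in untreated *com2*Δ cells, against 198, 221 and 237 in treated and 2089.6, 4027 and 2557 in untreated BY4741 cells. It was low in treated cells of both strains, at -2.82 (SE 0.27) in *com2*Δ and -3.67 (SE 0.27) in BY4741. Its paralog YOR062C had 3167, 2523 and 3183 in treated and 2249, 2236 and 2452 in untreated *com2*Δ cells, against 785, 800.1 and 1160.1 in treated and 2689, 2729 and 2823 in untreated BY4741 cells. The paralog was slightly higher on every treated array of *com2*Δ, at 0.35 (SE 0.15), but lower with SO2 in BY4741, at -1.61 (SE 0.15).

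YNL194C codes for a membrane protein of the Sur7 family, which sits in the eisosome patches of the plasma membrane. Its intensities were 539, 211 and 469 in treated and 497, 534 and 851 in untreated *com2*Δ cells, against 102, 139 and 121 in treated and 850.0, 1054 and 1303 in untreated BY4741 cells. The *com2*Δ groups overlapped, at -0.69 (SE 0.33), and replicate 2 of the treated ones was lower than the other 2. The BY4741 groups were apart, at -3.14 (SE 0.33), or at least 6.90-fold lower with SO2, since the treated mean lay under 152.5. YNL195C, its neighbour on the chromosome, had 448, 262 and 509.8 in treated and 819, 807 and 1091 in untreated *com2*Δ cells, against 185, 198 and 190.5 in treated and 1189, 1276 and 1324 in untreated BY4741 cells. It was lower with SO2 in both strains, at -1.20 (SE 0.21) in *com2*Δ and -2.72 (SE 0.21) in BY4741.

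The remaining members with the lowest differences in BY4741 have no role that could be stated with certainty. YDL241W had 389, 298 and 512 in treated and 898, 1172 and 1494 in untreated *com2*Δ cells, against 95.7, 91.7 and 103 in treated and 518, 1002 and 1684 in untreated BY4741 cells. Its treated BY4741 arrays lay close together near 100 and its untreated ones spread more widely, and the differences were -1.58 (SE 0.36) in *com2*Δ and -3.31 (SE 0.36) in BY4741. The treated BY4741 mean of 96.8 was under 152.5, so the level there was at least 6.27-fold lower with SO2. YNR014W had 173, 155 and 195 in treated and 316, 455 and 788 in untreated *com2*Δ cells, against 58.5, 101 and 80.6 in treated and 353, 896 and 1013 in untreated BY4741 cells. The untreated arrays spread again, with replicate 1 lowest in each strain, and the differences were -1.48 (SE 0.40) in *com2*Δ and -3.13 (SE 0.40) in BY4741. With a treated BY4741 mean of 80.05, the level there was at least 4.49-fold lower with SO2.

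YOL014W had 1755, 908 and 1448 in treated and 2156, 2330.3 and 3157 in untreated *com2*Δ cells, against 230.3, 336 and 285 in treated and 2069, 2467 and 2538 in untreated BY4741 cells. Its treated *com2*Δ arrays lay nearer to the untreated ones, with a difference of -0.93 (SE 0.23), than its treated BY4741 arrays did, at -3.07 (SE 0.23). YLR297W had 598, 647 and 698 in treated and 1322, 1768 and 1897 in untreated *com2*Δ cells, against 197, 283 and 232 in treated and 1998, 2482 and 1421 in untreated BY4741 cells. It was lower with SO2 in both strains, at -1.35 (SE 0.21) in *com2*Δ and -3.03 (SE 0.21) in BY4741, and the treated arrays of *com2*Δ lay above those of BY4741.

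Among the other members lower in BY4741 were several relatives of enzymes and regulators. YNR064C, an epoxide hydrolase, differed by -1.56 (SE 0.16) in *com2*Δ and by -2.42 (SE 0.16) in BY4741. YBR238C, the paralog of the mitochondrial protein Rmd9, differed by -0.20 (SE 0.21) in *com2*Δ and -1.86 (SE 0.21) in BY4741. YBR062C, a RING domain protein, differed by 0.02 (SE 0.15) in *com2*Δ, with overlapping groups, and by -1.54 (SE 0.15) in BY4741. For YLR345W, similar to 6-phosphofructo-2-kinases, the difference was -0.31 (SE 0.21) in *com2*Δ and -1.39 (SE 0.21) in BY4741. YKL091C, a homolog of the lipid transfer protein Sec14, differed by -0.09 (SE 0.15) in *com2*Δ and -1.16 (SE 0.15) in BY4741. YER158C, the paralog of the polarity protein gene *AFR1*, was lower with SO2 in both strains, at -0.71 (SE 0.09) in *com2*Δ and -1.32 (SE 0.09) in BY4741.

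YER187W had the highest fitted difference of all members in *com2*Δ. Its intensities were 1565, 639 and 969 in treated and 151, 129 and 142 in untreated *com2*Δ cells, against 89.8, 97 and 100.4 in treated and 167, 125 and 136 in untreated BY4741 cells. Only the treated *com2*Δ arrays were bright. The differences were 2.82 (SE 0.25) in *com2*Δ and -0.57 (SE 0.25) in BY4741. The untreated *com2*Δ mean and both BY4741 means lay under 152.5, so the level in *com2*Δ was at least 6.49-fold higher with SO2 and no direction is given for BY4741. YHR022C had 980.2, 351 and 757 in treated and 126, 122 and 121 in untreated *com2*Δ cells, against 124, 155 and 149.9 in treated and 169, 155 and 109 in untreated BY4741 cells. It too was high on treated *com2*Δ arrays only, with replicate 2 the lowest of the 3, and the differences were 2.38 (SE 0.30) in *com2*Δ and 0.01 (SE 0.30) in BY4741. The same 3 means lay under 152.5 here, and the level in *com2*Δ was at least 4.19-fold higher with SO2. YDL177C had 2421, 1466 and 1831 in treated and 649.7, 636 and 871 in untreated *com2*Δ cells, against 1237, 1061 and 1243 in treated and 659.8, 628 and 529 in untreated BY4741 cells. It was higher with SO2 in both strains without overlap, by 1.39 (SE 0.18) in *com2*Δ and, just under the limit, by 0.97 (SE 0.18) in BY4741.

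YLR108C, a protein with a BTB domain and a paralog of YDR132C, was another member higher in *com2*Δ only. It had 2457, 2208 and 3124 in treated and 795, 1218 and 1527 in untreated *com2*Δ cells, against 743, 819 and 952 in treated and 664, 766 and 1154 in untreated BY4741 cells. It was higher with SO2 in *com2*Δ, at 1.17 (SE 0.25), while the BY4741 groups overlapped, at -0.01 (SE 0.25). YDR061W, an ATPase of the ABC family, differed by 1.15 (SE 0.10) in *com2*Δ and by 0.61 (SE 0.10) in BY4741. The other members past the upper limit in *com2*Δ only were YER079W, YBL029W, YIL001W, YPL077C, YLR326W and YLR152C, whose differences there ran between 1.03 and 1.31. In BY4741 YER079W was just under the limit, at 0.98 (SE 0.31) with overlapping groups, and YBL029W was at 0.75 (SE 0.28). The remaining ones ran between 0.04 and 0.33 in BY4741.

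The 2 members past the limit in opposite directions were bright ones. YER053C-A, a short ORF, had 7792, 4593 and 7878 in treated and 911, 2443 and 3256 in untreated *com2*Δ cells, against 201, 405 and 203 in treated and 2151, 4555 and 2215 in untreated BY4741 cells. Treated arrays were above all untreated arrays in *com2*Δ and below all of them in BY4741. The differences were 1.76 (SE 0.47) in *com2*Δ and -3.45 (SE 0.47) in BY4741, with the widest spread among untreated arrays of any member in *com2*Δ, since replicate 1 was far lower than the others. YDR248C, a putative gluconokinase, had 10409.5, 7208 and 8476 in treated and 2087, 1925 and 2508 in untreated *com2*Δ cells, against 1025, 1124 and 979 in treated and 3036, 2822 and 1951 in untreated BY4741 cells. The groups again did not overlap in either strain, with differences of 1.99 (SE 0.18) in *com2*Δ and -1.30 (SE 0.18) in BY4741. The responses of *com2*Δ and BY4741 differed by 5.21 (SE 0.67) for YER053C-A and by 3.29 (SE 0.26) for YDR248C.

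In *com2*Δ the lowest difference after YKR075C and YCL042W was that of YMR085W. Together with YMR084W it makes up a single gene in other strains, similar to the glutamine-fructose-6-phosphate amidotransferase Gfa1. YMR085W had 213, 184 and 302 in treated and 1238, 1172 and 1209 in untreated *com2*Δ cells, against 516, 504 and 783 in treated and 1216, 1397 and 2081 in untreated BY4741 cells. It was lower with SO2 in both strains, at -2.41 (SE 0.24) in *com2*Δ and -1.37 (SE 0.24) in BY4741. YMR084W was dimmer, with 53.1, 73.1 and 73.5 in treated and 209, 176 and 247 in untreated *com2*Δ cells, against 102, 89.2 and 107 in treated and 234, 295 and 412 in untreated BY4741 cells, and differed by -1.67 (SE 0.21) in *com2*Δ and -1.62 (SE 0.21) in BY4741, or at least 1.37-fold in *com2*Δ and at least 2.00-fold in BY4741, as both treated means were under 152.5.

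YBR284W, related to AMP deaminases, had 145, 120.3 and 194 in treated and 667, 426 and 723 in untreated *com2*Δ cells, against 171, 223 and 207 in treated and 1179, 803 and 766 in untreated BY4741 cells. The differences were -1.98 (SE 0.24) in *com2*Δ and -2.17 (SE 0.24) in BY4741, and the responses of the strains were 0.20 (SE 0.34) apart. YLR177W had 762, 674 and 1026 in treated and 2476, 3781 and 3285 in untreated *com2*Δ cells, against 925, 1113 and 1333 in treated and 2622, 4276 and 2939 in untreated BY4741 cells. It was lower with SO2 in each strain, at -1.96 (SE 0.23) in *com2*Δ and -1.53 (SE 0.23) in BY4741. YJR115W, the paralog of *ECM13*, had 79.8, 125 and 108 in treated and 224, 406 and 514 in untreated *com2*Δ cells, against 55.8, 68.2 and 78.6 in treated and 213, 576 and 506 in untreated BY4741 cells. Untreated replicate 1 was the lowest of its group in both strains, yet treated and untreated arrays did not overlap, with -1.82 (SE 0.38) in *com2*Δ and -2.57 (SE 0.38) in BY4741. Its treated means were under 152.5, so it was at least 2.36-fold lower with SO2 in *com2*Δ and at least 2.60-fold lower in BY4741.

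YHR138C, a relative of the protease B inhibitor Pbi2, was among the brightest of the lower members. It had 2161, 1656 and 2395 in treated and 7066, 5602 and 7656 in untreated *com2*Δ cells, against 1952, 2624 and 2322 in treated and 12433, 10643 and 7866 in untreated BY4741 cells. The differences were -1.71 (SE 0.20) in *com2*Δ and -2.15 (SE 0.20) in BY4741. YEL076C-A, a piece of a helicase-like ORF in the subtelomeric Y′ element, had 75.7, 99.7 and 114 in treated and 356, 329 and 306 in untreated *com2*Δ cells, against 225, 246 and 185 in treated and 269, 313 and 540.2 in untreated BY4741 cells. Its treated *com2*Δ arrays were the lowest, and the differences were -1.79 (SE 0.24) in *com2*Δ, at least 2.16-fold at the bound, and -0.72 (SE 0.24) in BY4741. YBL111C and YBL112C are further parts of a Y′ element, with consecutive ORF numbers. YBL111C had 1239, 1216 and 1239 in treated and 2862, 3018 and 1965 in untreated *com2*Δ cells, against 4119, 2685 and 3532 in treated and 1965, 2121 and 3383 in untreated BY4741 cells, with a difference of -1.06 (SE 0.23) in *com2*Δ and, with overlapping groups, of 0.49 (SE 0.23) in BY4741. YBL112C differed by -1.18 (SE 0.19) in *com2*Δ and -0.62 (SE 0.19) in BY4741. All 3 were measured with probe sets that match several sequences, so that copies of the element at other chromosome ends cannot be told apart.

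**Figure D4:**
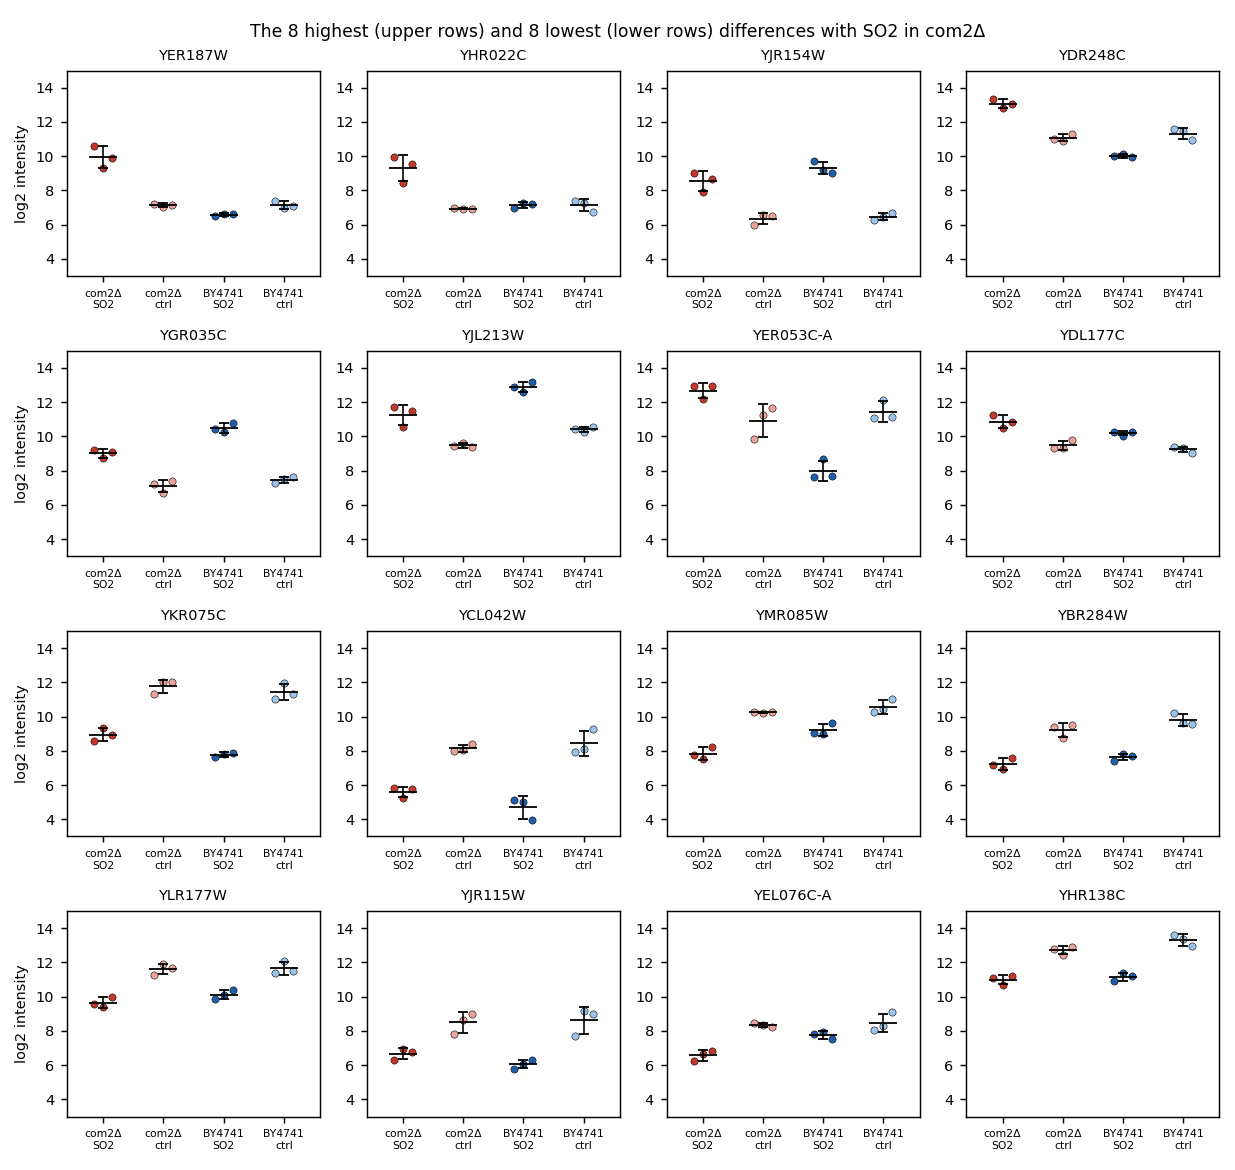
Log2 intensity of the 8 members with the highest (upper rows) and the 8 with the lowest (lower rows) difference in *com2*Δ, on each array of the 4 groups. Points are arrays, long bars the group means and short bars 1 SD (n = 3). YER187W and YHR022C are bright only in treated *com2*Δ cells, whereas YKR075C and YCL042W are lower with SO2 in both strains.

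The strains were next compared without SO2, a contrast the rule did not use, though its 6 arrays are those of the untreated groups in the rule. A member was called where limma gave a 2-fold or larger difference with p below 0.05, and with a false discovery rate below 10% after Benjamini-Hochberg adjustment over all 5716 probe sets. With these limits 0 members were called higher and 0 lower in *com2*Δ, against 0.367% of all probe sets called higher and 0.367% called lower. In limma 24 members had an unadjusted p under 0.05, against 13.6% of all probe sets, and 3 had an adjusted p under 0.10 whatever the fold, against 1.99%. These 3 were YER158C at -0.57 (SE 0.09, adjusted p = 0.0142), YNR064C at -0.90 (SE 0.16, adjusted p = 0.0228) and YMR001C-A at 0.57 (SE 0.12, adjusted p = 0.0484), with *com2*Δ minus BY4741 on the log2 scale. YER158C gave 1279, 1288 and 1401 in untreated *com2*Δ cells, against 1963, 1999.6 and 1938 in untreated BY4741 cells. YNR064C gave 603, 489 and 623 in untreated *com2*Δ cells, against 958, 936 and 1320.3 in untreated BY4741 cells. For both, the arrays of the strains did not overlap. Over all members the median was -0.10 (-0.93 to 0.75), beside -0.02 over all probe sets. Of the 405 other probe sets with a systematic name only, 1 was called higher and 4 lower.

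With SO2 present, 23 members were called higher and 32 lower in *com2*Δ than in BY4741, against 7.68% of all probe sets called higher and 9.99% called lower. These 6 arrays are the treated ones on which the members were chosen, so the counts are not independent of the rule. Members that were higher with SO2 in BY4741 made up most of the lower ones, with 28 of 42 called lower in *com2*Δ and 0 called higher. Among the members lower with SO2 in BY4741, 18 of 44 were called higher and 1, YMR085W, lower, which came under 2-fold with array weights (-0.94). The median strain difference was -1.36 for the members higher in BY4741 and 0.88 for the lower ones. The treated BY4741 arrays that set these classes are also part of this contrast, so nothing is read from the split or its medians. Among the 405 other probe sets with a systematic name, 27 were called higher and 26 lower. In 10 of the called members 1 of the 2 treated means lay under 152.5, and 3 of these, YEL076C-A, YJL218W and YNR014W, were under 2-fold at the bound.

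The largest strain differences under SO2 were those of YER053C-A at 4.69 (SE 0.47, adjusted p = 1.13e-05), YER187W at 3.37 (SE 0.25, adjusted p = 1.61e-06), at least 6.49-fold at the bound, and YDR248C at 3.05 (SE 0.18, adjusted p = 3.78e-07), all higher in *com2*Δ. YER053C-A gave 7792, 4593 and 7878 in treated *com2*Δ cells, against 201, 405 and 203 in treated BY4741 cells. On the lower side stood YHL048C-A at -3.00 (SE 0.15, adjusted p = 1.18e-07), YEL073C at -2.50 (SE 0.12, adjusted p = 1.14e-07) and YIL165C at -2.43 (SE 0.21, adjusted p = 4.32e-06). For each of these 6 the 3 treated arrays of the strains were fully apart. They were taken as the largest differences on those arrays, so nothing is read from this separation. The treated arrays also served to choose the members, so the adjusted p-values are not independent of that choice. YJR154W, at -0.77 (SE 0.27, adjusted p = 0.029), missed the 2-fold limit, and YCL042W, at 0.91 (SE 0.37, adjusted p = 0.0485), missed it on values near background. YHR138C, at -0.16 (SE 0.20, adjusted p = 0.509), YNR064C, at -0.04 (SE 0.16, adjusted p = 0.858), and YER158C, at 0.04 (SE 0.09, adjusted p = 0.713), were not called.

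Members with a likely enzyme or transporter function were followed through 3 lists of ORFs without a gene name. The lists are not complete. YJR149W and YGL114W, the relatives of nitronate monooxygenases and of oligopeptide transporters described above, are in none of them. Both were called lower in *com2*Δ with SO2, at -2.01 (SE 0.20, adjusted p = 9.65e-06) and -1.37 (SE 0.11, adjusted p = 3.18e-06). The putative gluconokinase YDR248C is also in none of them and was called higher in *com2*Δ with SO2, as given above. The treated arrays also served to choose the members. No p-value or call of a member between the treated strains, here or in the lists that follow, is therefore independent of the rule. Of 15 listed oxidoreductases, 12 had a probe set of that name and 3 were members. In BY4741 1 was higher and 2 were lower, beside 9.95% upward and 7.72% downward over all probe sets. In *com2*Δ 0 passed the limits in either direction, beside 2.59% upward and 2.47% downward. With 12 probe sets nothing is read from these counts. The median response over the 12 was -0.10 in *com2*Δ and -0.27 in BY4741, beside 0.014 in *com2*Δ and -0.0041 in BY4741 over all probe sets. The member that was higher, YLL056C, resembles nucleotide sugar epimerases and lies next to *YCT1*, the gene of a cysteine transporter. It had 447, 329.7 and 407 in treated and 437, 405 and 382 in untreated *com2*Δ cells, against 1501, 1446 and 1731 in treated and 399, 347 and 456 in untreated BY4741 cells. The *com2*Δ groups overlapped, at -0.06 (SE 0.14), against 1.97 (SE 0.14) in BY4741. The aldo-keto reductases YDL124W and YJR096W were lower with SO2 in BY4741. YDL124W had 11181, 9475 and 10030.2 in treated and 11634, 10403 and 11631 in untreated *com2*Δ cells, against 4183, 2670.1 and 5038 in treated and 12036, 11799 and 14304 in untreated BY4741 cells, with differences of -0.14 (SE 0.19) in *com2*Δ and -1.72 (SE 0.19) in BY4741. YJR096W, just inside the limit, had 3554, 1932 and 2399 in treated and 2232, 2339.5 and 2894 in untreated *com2*Δ cells, against 1286, 1219 and 1458 in treated and 2705, 2825 and 2539.6 in untreated BY4741 cells, with 0.04 (SE 0.19) in *com2*Δ and -1.03 (SE 0.19) in BY4741. In both cases the *com2*Δ groups overlapped. Between the treated strains 2 of the 12 were called higher and 2 lower in *com2*Δ, beside 7.68% and 9.99% of all probe sets, and between the untreated strains 0 were called, beside 0.367% in each direction.

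Of 16 listed membrane transporters, 9 were measured and 3 were members. YKR104W is the separated end of the ABC transporter gene *NFT1*. It had 95.4, 137 and 146 in treated and 400.3, 385 and 236 in untreated *com2*Δ cells, against 492, 638 and 509.9 in treated and 534, 558 and 344 in untreated BY4741 cells. Only the treated *com2*Δ arrays were low, with a difference of -1.42 (SE 0.25) there, at least 2.17-fold at the bound, and of 0.21 (SE 0.25) in BY4741. *NFT1* itself, the upstream piece of that gene, was under the level limit and gave -0.85 (SE 0.22) in *com2*Δ and 0.12 (SE 0.22) in BY4741. YLR152C, of the auxin efflux carrier family, was among the brightest members. It had 13819.6, 10276 and 12657 in treated and 3948, 5940.2 and 5051 in untreated *com2*Δ cells, against 6504, 7962 and 7873 in treated and 7144, 8726 and 6028 in untreated BY4741 cells, and was higher with SO2 in *com2*Δ, at 1.31 (SE 0.18), while the BY4741 groups overlapped, at 0.04 (SE 0.18). Its untreated *com2*Δ arrays lay below the untreated BY4741 arrays, at -0.56 (SE 0.18). The treated strains differed by 0.71 (SE 0.18), and neither strain difference was called. YCR023C, a vacuolar protein of the major facilitator superfamily, had 3275, 2719.9 and 3948 in treated and 3132, 3916 and 3182 in untreated *com2*Δ cells, against 7510.0, 9337 and 8706 in treated and 3721, 4519.7 and 3044 in untreated BY4741 cells. Its *com2*Δ groups overlapped, at -0.05 (SE 0.17), and it was higher with SO2 in BY4741, at 1.19 (SE 0.17), much as YGL114W was. The median response over the 9 was -0.29 in *com2*Δ and -0.02 in BY4741, and between the treated strains 1 of them was called higher and 3 lower in *com2*Δ, beside 7.68% higher and 9.99% lower over all probe sets.

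The last list was drawn up for relatives of enzymes or transporters of sulfur amino acids. It held 8 ORFs, of which 5 were measured and 2 were members, YLL056C and YHR112C. YLL056C, described above as similar to nucleotide sugar epimerases, is not clearly such a relative. The lists overlap, as YLL056C is also among the oxidoreductases, and YOL162W and YOL163W are also among the transporters. YLL056C and YOL162W, both called lower in *com2*Δ with SO2, are therefore counted in 2 lists. YHR112C resembles the cystathionine enzymes, which move sulfur between cysteine and homocysteine. Its intensities were 3179, 2249 and 2539.5 in treated and 1916, 1793 and 1966 in untreated *com2*Δ cells, against 6022, 4602 and 5951 in treated and 1611, 1587 and 2029 in untreated BY4741 cells. It was higher with SO2 in both strains without overlap, by 0.48 (SE 0.15) in *com2*Δ and by 1.66 (SE 0.15) in BY4741. The strains differed under SO2 by -1.06 (SE 0.15, adjusted p = 0.000127), which came under 2-fold with median centring (-0.98), without *com2*Δ SO2 replicate 2 (-0.95) and without BY4741 SO2 replicate 1 (-0.99). The median response over the 5 was -0.06 in *com2*Δ and -0.02 in BY4741, and between the treated strains 0 were called higher and 3 lower in *com2*Δ, beside 7.68% higher and 9.99% lower over all probe sets. With 5 probe sets, 2 of them members, nothing is read from that count.

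Some members lie beside a gene that moved with them. Among the members higher in BY4741 with a measured neighbour, 16 of 39 (41.0%) had a next gene past the same limits in the same direction, and among all such probe sets 157 of 542 (29.0%) did. For the members lower in BY4741 it was 12 of 43 (27.9%), against 79 of 411 (19.2%). In *com2*Δ it was 1 of 20 (5%) for the higher members, against 16 of 140 (11.4%), and 7 of 23 (30.4%) for the lower ones, against 20 of 128 (15.6%). A pair in which both genes are members counts for each of them. Among the members lower in *com2*Δ this holds for YMR084W with YMR085W and for YBL111C with YBL112C. Among those lower in BY4741 it holds for YMR084W with YMR085W and for YNL194C with YNL195C. There both probe sets of YGR174W-A also count the same neighbour, *CBP4*. Without these repeats the 12 members lower in BY4741 stand for 9 pairs. These shares rest on the contrasts of the rule and were not tested.

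Several of these neighbours are parts of what other strains have as a single gene. For YIL165C and *NIT1* the difference in BY4741 was 3.47 and 3.54 (SE 0.20). *NIT1* averaged 1882 ± 424 in treated and 958 ± 178 in untreated *com2*Δ cells, against 11369 ± 2176 in treated and 975 ± 146 in untreated BY4741 cells (SD, n = 3 each). YLL053C and *AQY2* differed by 1.68 and 1.57 (SE 0.15), and YMR085W and YMR084W by -1.37 and -1.62. The leader ORF YOR302W and *CPA1*, which share a transcript, differed by 1.84 and 1.34 (SE 0.16) in BY4741, and by 0.16 and 0.41 (SE 0.16) in *com2*Δ.

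Other pairs joined a member to a separate gene. YLL056C and *YCT1* were at 1.97 and 2.38 in BY4741, YJR154W and the putative aryl-alcohol dehydrogenase gene *AAD10* at 2.87 and 3.05, and YDR124W and *INO2*, an activator of phospholipid synthesis genes, at 2.12 and 2.11. YMR001C-A and the polo kinase gene *CDC5* were at 2.46 and 1.82. YLR179C and *SAM1*, an *S*-adenosylmethionine synthetase gene, were at 1.55 and 2.20. On the lower side, YCL042W and the glucokinase gene *GLK1* were at -3.75 and -2.47, and YHR138C and the spore wall gene *SPS100* at -2.15 and -2.72. Pairs in opposite directions also occurred. YHL048C-A was at 2.70 in BY4741, whereas its neighbour *COS8* was at -1.63. YDR249C was higher and YDR248C lower in BY4741, at 1.46 (SE 0.13) and -1.30 (SE 0.18), with 2397, 3262 and 2365 in treated and 1042, 940.0 and 898 in untreated BY4741 cells for YDR249C. YNR065C and YNR064C, also next to each other, were at 1.99 and -2.42.

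**Figure D5:**
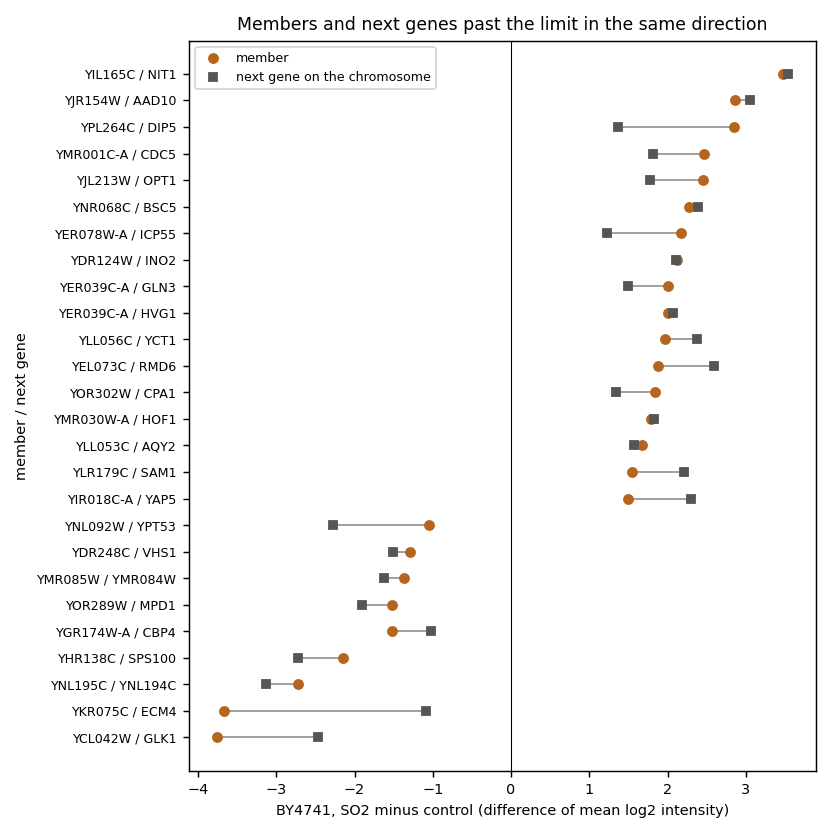
Difference between treated and untreated BY4741 cells (difference of mean log2 intensity) for the 26 pairs of a member (circle) and its next gene on the chromosome (square) that are past the limits in the same direction, 17 pairs higher and 9 lower with SO2. Pairs such as YIL165C and *NIT1* or YDR124W and *INO2* nearly coincide, whereas YKR075C lies far below *ECM4*.

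ORFs whose number ends in a suffix letter, which are mostly short and were added to the annotation later, made up 22 of the 103 members. Of 148 probe sets with such a suffix 14.9% were members, against 22.5% of 360 probe sets without one. The median of the mean log2 intensity was 8.38 for members with a suffix and 10.05 for the others. Of the 22, 13 were higher and 8 lower in BY4741, and 3 were higher and 3 lower in *com2*Δ. ORFs with a systematic name only were dimmer as a class than genes with a name, with medians of 9.30 and 10.88, and 70.1% of them reached the level limit against 96.0%. Of those at the level limit 28.9% were members, and 20.2% of named genes at that level met the same difference limit. Over all levels the shares were close, with 20.3% of the probe sets with a systematic name only and 19.4% of the named ones. The level limit uses the highest of the group means, which a response to SO2 can itself raise, so nothing is read from these shares.

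The probe set mattered for a few ORFs. Of the members, 6 were measured with probe sets that match several transcripts of a family and 2 with probe sets that share only some probes. YGR174W-A had 2 member probe sets. The first gave 85.6, 43.3 and 131 in treated and 108, 146 and 215 in untreated *com2*Δ cells, against 70.5, 105 and 92.1 in treated and 328, 368 and 151 in untreated BY4741 cells, and the second 93.8, 59.8 and 123 in treated and 129, 176 and 258 in untreated *com2*Δ cells, against 83.3, 126 and 111 in treated and 388, 427 and 165 in untreated BY4741 cells. Both were dim and gave lower values with SO2 in BY4741, at -1.58 (SE 0.43) and -1.52 (SE 0.38), where the treated means were under 152.5 and the bounds under 2-fold. In *com2*Δ the differences were -0.93 (SE 0.43) and -1.03 (SE 0.38), with treated means also under 152.5. The bound there was at least 1.18-fold for the second probe set, and none is given for the first. YLL066W-B, in a subtelomeric region, also had 2 member probe sets, at 1.43 (SE 0.27) and 1.21 (SE 0.26) in BY4741, while another one under the level limit gave 0.02. YLR157W-E was higher at 1.59 (SE 0.15) with its member probe set, and a second probe set, also under the level limit, gave -0.77. YLR156W, from the repeats beside the ribosomal DNA, had 176, 154 and 224 in treated and 125, 151 and 98.7 in untreated *com2*Δ cells, against 508, 566 and 571 in treated and 145, 169 and 155 in untreated BY4741 cells, and differed by 0.57 (SE 0.17) in *com2*Δ and 1.81 (SE 0.17) in BY4741. Its untreated *com2*Δ mean lay under 152.5, so the level in *com2*Δ was at least 1.19-fold higher with SO2.

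Just inside the limit of 1 lay YMR114C at -1.01 and YJR096W at -1.03 in BY4741, and YIL001W at 1.03 in *com2*Δ. Just outside were YOR012W at 0.99 and YJL047C-A at 0.99 in *com2*Δ, the second with -0.98 in BY4741, and YEL025C at 0.99 in BY4741. By level, the last members were YFR012W-A at 8.02, YGR174W-A at 8.04 and YJL218W at 8.12 as the highest group mean of log2 intensity. The first probe sets with a 2-fold difference below that level were YGL188C-A at 7.85, YMR317W at 7.85 and YLR031W at 7.80. In all, 152 of the 508 probe sets were under the level limit, and 39 of these had a difference of 1 or more. Members came from every chromosome except I, where 0 of 13 candidates were members. Chromosome XII held 14 members among 44 candidates, XIV 11 among 39, V 8 among 23 and XVI 3 among 37. Over all chromosomes 20.3% of the candidates were members, and the spread over chromosomes was not tested.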

How the data were processed

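RNA of 12 cultures was hybridised to Affymetrix Yeast Genome 2.0 arrays. Each value the authors deposited was taken as a linear intensity of a probe set. The paper describes invariant-set normalization and perfect-match expression indices in dChip after detection calls. The submitters' processing notes name MAS5, and which of the 2 gave the values is not settled here. The paper and the labels also differ in the number of arrays and the labelling kit, and the 12 arrays of the labels were used. Symbols came from the platform annotation, which gave 1 symbol for 5498 probe sets, several for 0 and none for 218. RefSeq (assembly R64) served for names and neighbours only, as no genome build is given in the sources used here.

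Intensities were taken as log2 with no pseudocount or further scaling, and limma 3.58.1 in R 4.3.3 was fitted to all 5716 probe sets with 1 mean per group (8 residual and 3.19 prior degrees of freedom). Standard errors come from this fit, which pools the spread over the 4 groups, so both strains share 1 SE per probe set. The strain comparisons were called at 2-fold, p below 0.05 and a false discovery rate (Benjamini-Hochberg) below 10%. On simulated data of the comparison without SO2, over 5716 features, 100 of 100 changes of 1.5 and 100 of 100 changes of 3 on the log2 scale were called, and 2 unchanged features. The noise was normally distributed, and the changes were placed only on probe sets with a mean log2 intensity above 8. Dimmer members and changes nearer to 2-fold were therefore not covered. Python 3.11.15 with numpy 2.4.6, pandas 2.3.3 and matplotlib 3.10.9 made tables and figures. The number of arrays limits the precision.

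The members and lists were chosen with earlier results of these data known. Named were the 8 highest and 8 lowest members in each strain, members with opposite directions, members called between the untreated strains, up to 3 probe sets on either side of each limit, members with consecutive ORF numbers, list members, members sharing an ORF, *COM2* and the deleted genes. Every other ORF or gene named, such as YGR079W, *CPA1*, *NIT1*, *AQY2* and *NFT1*, was chosen after its values were seen. Alternatives were other scalings, limits, limma settings and leaving out each array in turn.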

Additional observations from a re-analysis of the deposited data

Results flagged for a closer look

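In 8 members every treated array lay on opposite sides of the untreated arrays in the 2 strains, above them in 1 strain and below them in the other. The difference between the strains' responses was not tested, since the members were chosen on these contrasts. The values below are the response in *com2*Δ minus that in BY4741, on the log2 scale. For 4 members the treated arrays were higher in *com2*Δ and lower in BY4741. These were YER053C-A at 5.21 (SE 0.67), YER187W at 3.39 (SE 0.35), YDR248C at 3.29 (SE 0.26) and YOR062C at 1.96 (SE 0.21). Both BY4741 means of YER187W lay under the highest signal of a deleted gene, 152.5, so its direction in BY4741 is not settled. For the other 4 they were lower in *com2*Δ and higher in BY4741. These were YHL048C-A at -3.52 (SE 0.21), YEL073C at -2.75 (SE 0.18), YOL107W at -2.07 (SE 0.27) and YNL146C-A at -1.48 (SE 0.25).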

How the results depend on the processing

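The rule gave 103 members. A difference limit of 1.5 left 58, and leaving out each array in turn gave 99 to 118, the most without BY4741 control replicate 3. Of the 103, 84 met the rule whichever array was left out. Quantile normalization gave 101 members, median centring 108, 16 added to each intensity 100, a level limit of 7 or 9 gave 115 or 87, no level limit 142, and medians of the arrays 117. Same-numbered arrays had correlations of their deviations of -0.31 to 0.47 over the 6 pairs of groups, and 15 of 36 comparisons were highest for the array's own number. Between untreated *com2*Δ and untreated BY4741 all 3 were positive (0.35, 0.25 and 0.097), and each of these 6 arrays correlated best with its own number, a hint from the data that the labels do not bear out. With the replicate number as a block, the median of same-numbered differences gave 106 members, and limma called 0 and 0 members without SO2 and 23 and 32 with SO2, as without the block.

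Without SO2, 0 members were called higher and 0 lower. An adjusted p under 0.05 with no fold limit gave 1 higher and 2 lower. Array weights gave 2 lower, both probe sets of YGR174W-A, though the weights did not fully converge. Leaving out each array gave 0 higher and 0 to 1 lower, which was YGR174W-A without BY4741 control replicate 3. With SO2, the 23 higher and 32 lower calls became 11 and 19 without the 25% dimmest probe sets, a setting that tests only 52 of the 103 members. With an adjusted p under 0.05 and no fold limit they became 39 and 44. Leaving out each array gave 22 to 25 higher and 31 to 33 lower. Of the 55 called members, 9 fell under 2-fold in at least 1 alternative, and no value reversed. For YEL076C-A, YMR085W and YLR326W this was with array weights only. Leaving out 1 array did so for YBR238C (lowest 0.85), YLR179C (-0.95), YNL195C (0.84) and YHR112C (-0.95) with more than 1 choice of array, for YKR075C without *com2*Δ SO2 replicate 2 (0.97) and for YNR014W without BY4741 SO2 replicate 1 (0.94). Quantile normalization also did so for YLR179C (-0.90) and YNL195C (0.96), and median centring for YLR179C (-0.94) and YHR112C (-0.98). YNL195C also fell under 2-fold with 16 added to each intensity (0.98), and YBR238C with array weights (0.91). Of 2064 alternative values of single members in the untested contrasts, 17 moved by more than the spread between replicates.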
